A study of Mus musculus with 15 samples.

Results

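Wnt2, Wnt4, Wnt5a, Wnt9a, Wnt9b, Wnt11, Rspo3, Axin2 and Lef1 were followed as 9 genes of the Wnt pathway in mouse embryonic hearts at E14.5. They comprise 6 secreted Wnt ligands, the secreted enhancer Rspo3 and the transcriptional targets Axin2 and Lef1. The genes were chosen by symbol, and each symbol matched 1 of the 55335 gene identifiers measured. Hearts carried 1 of 3 genotypes at Adamts16, whose product is a protease that cells release into the matrix around them. The Adamts16+/- group (4 libraries) is heterozygous for a knockout allele, the Adamts16+/H355Q group (4 libraries) carries 1 copy of the mutant allele named H355Q, and the WT group has 7 libraries. The series' title places Adamts16 deficiency beside bicuspid aortic valve, a malformation in which the valve between heart and aorta has a pair of cusps in place of the usual 3. No further allele, treatment or strain is named, and the labels do not say whether a library held 1 heart or several, so n counts libraries and each p measures the spread between libraries.

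A Wnt ligand binds a frizzled receptor on a neighbouring cell. In the canonical branch of the pathway, frizzled and its co-receptor Lrp5 or Lrp6 stop the destruction of beta-catenin, which then enters the nucleus and switches on targets with transcription factors of the TCF/LEF family. Axin2 is such a target and encodes a scaffold of the complex that destroys beta-catenin, so its transcript is widely used as a readout of the pathway. In the other branch, which Wnt5a and Wnt11 mostly use, the signal acts on cell shape and polarity. In the mouse heart both branches are known for their roles in the outflow tract and in the cushions that become valves.

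Values are FPKM, fragments scaled to the length of the gene and the depth of the library, as the authors deposited them. The 15 libraries implied 37500000 to 47700000 fragments in Adamts16+/-, 50600000 to 58400000 in Adamts16+/H355Q and 41800000 to 55600000 in WT. Any pair of libraries correlated at 0.951 to 0.986. The main axis of variation, with 27.6% of the variance, set WT libraries 1 to 4 (-19.6 to -12.2) beside Adamts16+/- (-18.7 to -11.8), and WT libraries 5 to 7 (8.0 to 36.1) beside Adamts16+/H355Q (8.5 to 23.1). Heart muscle markers were high throughout, with a mean log2(FPKM + 0.5) over 8 genes of 8.67 to 8.96 in Adamts16+/-, 8.59 to 8.87 in Adamts16+/H355Q and 8.59 to 9.14 in WT. Markers of neighbouring organs were present in some libraries: Foxn1, which defines thymic epithelium, was at 0.812 and 1.21 FPKM in Adamts16+/- libraries 1 and 2, at 1.47 and 1.07 FPKM in Adamts16+/H355Q libraries 2 and 4 and at 1.07 FPKM in WT library 7, and at most 0.0333 FPKM elsewhere. Results that rest on these libraries are also given without Adamts16+/- libraries 1 and 2 and WT library 7. For Axin2, Rspo3, Wnt2 and the counts of calls, values without all 5 libraries are given too.

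Axin2 differed most firmly among the 9 genes. It was 1.88 times as high in Adamts16+/- as in Adamts16+/H355Q hearts, with every Adamts16+/- library above every Adamts16+/H355Q library, and WT lay between the mutant groups. Rspo3 and Wnt5a rose in Adamts16+/- against WT by smaller steps, and these calls depended on single libraries. Wnt2, Wnt4, Wnt9a, Wnt9b and Wnt11 passed no test, and neither did Lef1. Because bulk heart RNA was measured, fewer cells of a type and less RNA per cell cannot be told apart in any of these values.

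The 9 genes were expressed at low to moderate levels. Per unit of gene length, Wnt5a was highest, with a mean of 4.66 FPKM over the 15 libraries (range 3.28 to 6.67), and Rspo3 followed at 2.64 FPKM (1.96 to 3.40). Wnt5a exceeded Rspo3 in each of the 15 libraries, and every Rspo3 value was above every value of Wnt11, the next gene by mean. In WT library 7, however, Wnt2 (3.84 FPKM) was above both Wnt5a (3.73 FPKM) and Rspo3 (1.96 FPKM). With lower means, Wnt11 (1.56 FPKM), Wnt2 (1.48 FPKM), Axin2 (1.33 FPKM), Wnt9a (1.23 FPKM) and Wnt4 (1.12 FPKM) had overlapping ranges. Neighbours in this order changed places between libraries. Lef1 averaged 0.569 FPKM (0.268 to 1.10) and was below Wnt4 in each library. Wnt9b was lowest at 0.244 FPKM (0.118 to 0.404), which corresponds to about 26 to 86 fragments in a library, against 249 to 504 for Axin2 and 1264 to 2462 for Wnt5a.

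**Figure D1:**
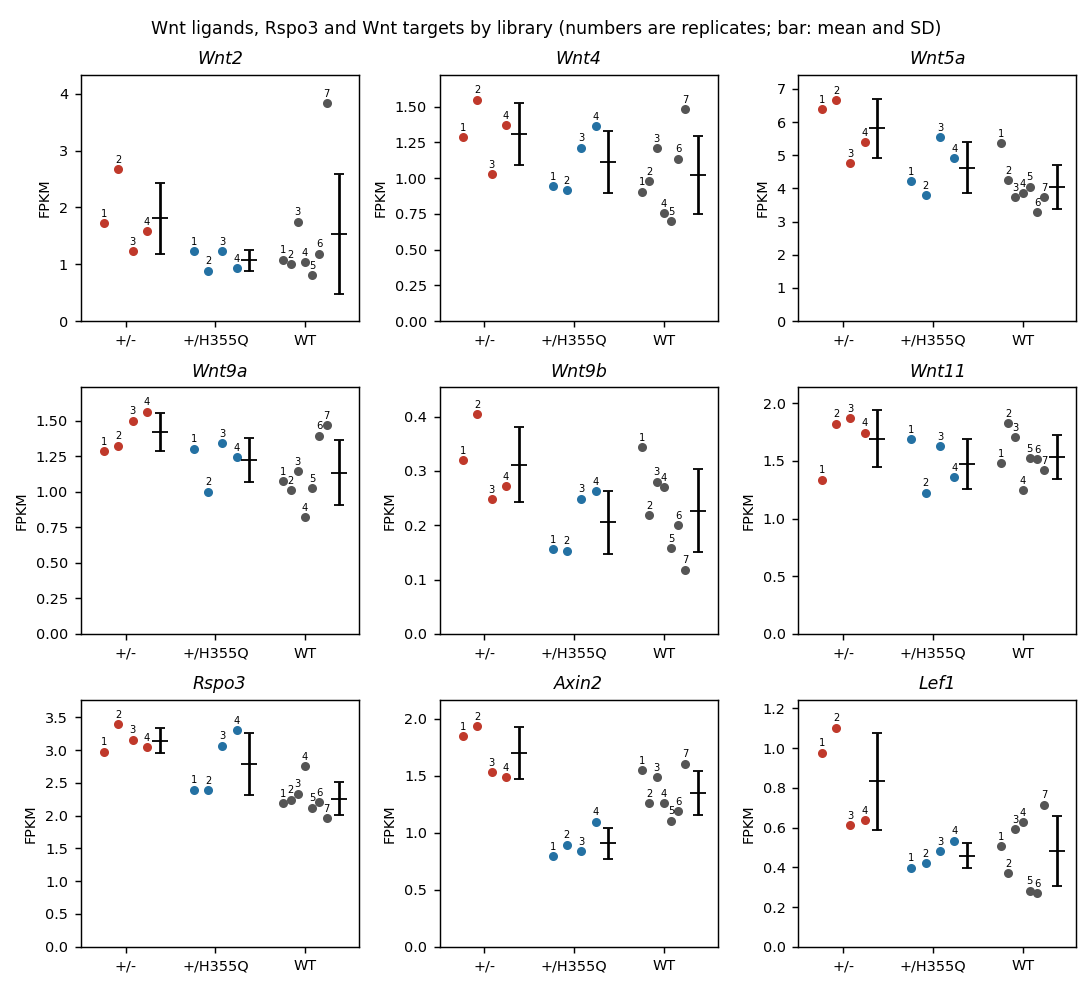
Levels of the 9 genes in FPKM (vertical axes, from 0) in the Adamts16+/-, Adamts16+/H355Q and WT libraries, with replicate numbers beside the points and the mean and SD beside each group. Axin2 in Adamts16+/- (1.49 to 1.94 FPKM) lies clear of Adamts16+/H355Q (0.795 to 1.10 FPKM), and Wnt2 has 1 WT library at 3.84 FPKM.

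Tests were run with limma on log2(FPKM + 0.5) over all 15 libraries for genes that averaged 0.5 FPKM or more, with p-values adjusted by the Benjamini-Hochberg method over the 15172 genes tested and a call at an adjusted p under 0.05. Of the 9 genes 8 passed this filter. Lef1 passed it only through its level in Adamts16+/- (mean 0.833 FPKM, against 0.459 in Adamts16+/H355Q and 0.481 in WT), and Wnt9b did not pass it. For Adamts16+/- against WT 2 of the 8 tested genes were called, both higher, where 2.75% of all genes tested were called. For Adamts16+/H355Q against WT 0 of the 8 were called by limma, where 0.376% of all genes were called. At an unadjusted limma p under 0.05 there were 2 of the 8, where 18.3% of all genes tested fell under it. For Adamts16+/- against Adamts16+/H355Q 1 of the 8 was called, where 10.0% of all genes were called. Groups that did not overlap were seen for 1 of the 8 genes in Adamts16+/- against WT (5.79% of all genes), for 1 in Adamts16+/H355Q against WT (2.65%) and for 3 between the mutant groups (25.7%). The first pair of comparisons share their WT libraries. The genes were picked with earlier results known, so these counts describe them and support no statement about the pathway as a whole.

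**Figure D2:**
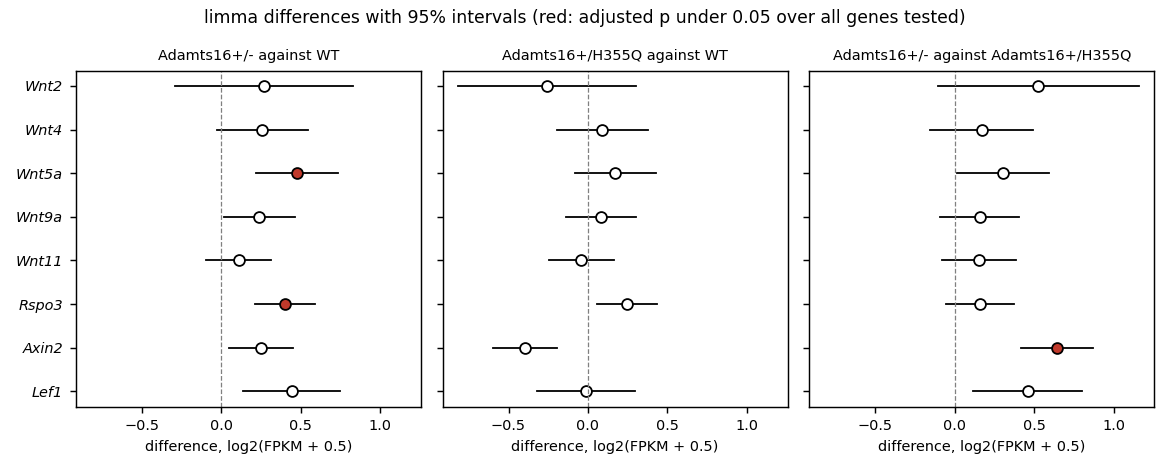
Differences in log2(FPKM + 0.5) with 95% limma intervals (horizontal axes) for the 8 tested genes in the 3 comparisons, with calls in red. Axin2 is at 0.65 for Adamts16+/- against Adamts16+/H355Q and at -0.39 for Adamts16+/H355Q against WT, and the interval of Wnt2 is the widest in each panel.

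Wnt5a, which signals mainly outside the beta-catenin branch and is needed for outflow tract septation in the mouse, was the most abundant ligand. The gene lies on chromosome 14 from 28504750 to 28527448 on the plus strand of GRCm38. It was at 6.39, 6.67, 4.76 and 5.40 FPKM in Adamts16+/- libraries 1 to 4, at 4.22, 3.80, 5.54 and 4.92 FPKM in Adamts16+/H355Q libraries 1 to 4, and between 3.28 and 5.37 FPKM with a median of 3.86 FPKM in WT. Adamts16+/- libraries 1 and 2 were above every other library, whereas libraries 3 and 4 lay within reach of WT library 1 and Adamts16+/H355Q library 3. Against WT the log2 difference in Adamts16+/- was 0.48 ± 0.12 (SE, limma adjusted p = 0.0482). That call was held in 3 of the 15 fits that left out 1 library each (adjusted p from 0.0265 to 0.162) and was lost without any single Adamts16+/- library. Without Adamts16+/- libraries 1 and 2 and WT library 7 the difference was 0.29 (limma adjusted p = 0.518). Wnt5a in Adamts16+/H355Q averaged 4.62 ± 0.768 FPKM (SD, n = 4) while WT averaged 4.04 ± 0.658 FPKM (SD, n = 7), and the 95% limma interval of the log2 difference ran from -0.08 to 0.43. Of 8 valve mesenchyme markers 3 were called higher and 1 lower in Adamts16+/- against WT. The lower one was Postn, at 82.3, 80.2, 59.0 and 64.8 FPKM in Adamts16+/- and at 87.9 to 104.9 FPKM in WT. The mean log2 level of the 8 was 3.42 and 3.38 in Adamts16+/- libraries 1 and 2 and 3.09 and 3.21 in libraries 3 and 4, against 2.97 to 3.30 in Adamts16+/H355Q and 2.83 to 3.11 in WT. Their part in the Wnt5a difference was not tested.

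Wnt11, the other ligand of the polarity branch and a gene of outflow tract muscle, was close to even across genotypes. Its levels were 1.34, 1.82, 1.87 and 1.75 FPKM in Adamts16+/-, 1.69, 1.22, 1.63 and 1.36 FPKM in Adamts16+/H355Q, and 1.24 to 1.83 FPKM with a median of 1.51 FPKM in WT. The 3 groups overlapped almost fully. The 95% limma interval of the log2 difference was -0.10 to 0.32 for Adamts16+/- against WT and -0.25 to 0.16 for Adamts16+/H355Q against WT. For Adamts16+/- against Adamts16+/H355Q it was -0.08 to 0.38.

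Wnt2, a canonical ligand made by heart and lung mesenchyme in the mouse, varied most among libraries of 1 genotype. It was at 1.73, 2.68, 1.23 and 1.59 FPKM in Adamts16+/-, at 1.23, 0.889, 1.23 and 0.927 FPKM in Adamts16+/H355Q, and between 0.811 and 3.84 FPKM with a median of 1.08 FPKM in WT. WT library 7 alone held the highest value, and each Adamts16+/- library was above every Adamts16+/H355Q library, library 3 by a margin too small to show in these digits. No comparison passed the test: the log2 difference was 0.27 ± 0.26 (SE, limma adjusted p = 0.61) for Adamts16+/- against WT, -0.26 ± 0.26 (adjusted p = 0.625) for Adamts16+/H355Q against WT and 0.53 ± 0.30 (adjusted p = 0.255) for Adamts16+/- against Adamts16+/H355Q. The absence of overlap between the mutant groups was shared by 25.7% of all genes tested. Tbx4, a transcription factor of lung mesenchyme, was highest in the same 4 libraries as Wnt2 and in the same order: 4.19 FPKM in WT library 7, 2.23 FPKM in Adamts16+/- library 2, 1.57 FPKM in WT library 3 and 1.43 FPKM in Adamts16+/- library 1, with at most 0.538 FPKM elsewhere. The whole lung mesenchyme list (5 genes, of which 3 passed the filter) had a mean log2 level of 0.27 to 1.41 in Adamts16+/-, 0.10 to 0.65 in Adamts16+/H355Q and 0.00 to 2.19 in WT. Without Adamts16+/- libraries 1 and 2 and WT library 7 the Wnt2 difference between the mutant groups was 0.29 (limma adjusted p = 0.398). With Adamts16+/H355Q libraries 2 and 4 also left out it was 0.14. The part of lung tissue in the Wnt2 values was not tested.

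**Figure D3:**
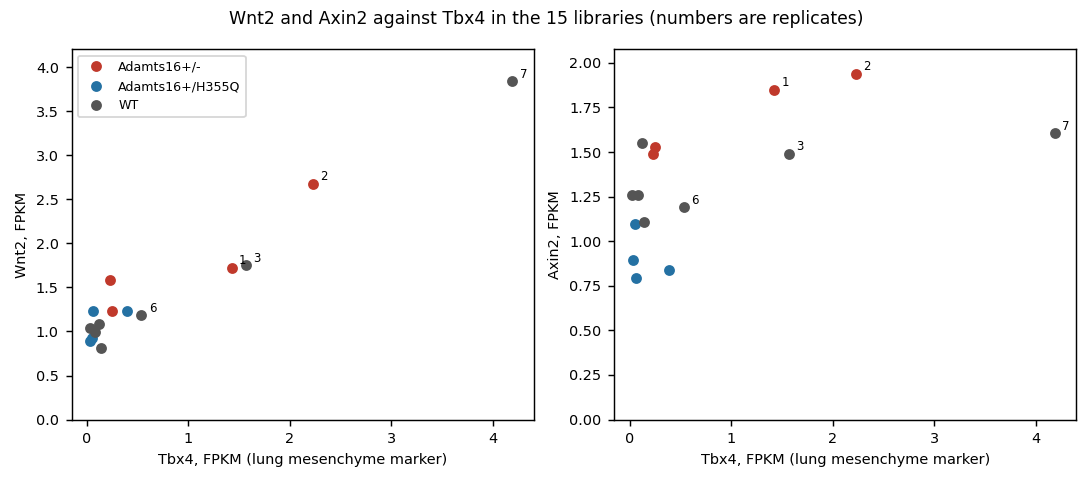
Wnt2 (left) and Axin2 (right) in FPKM against Tbx4, a lung mesenchyme marker, in FPKM, with 1 point per library coloured by genotype and replicate numbers beside libraries with Tbx4 above 0.5 FPKM. The 4 libraries with the highest Wnt2 (1.73 to 3.84 FPKM) are the 4 with Tbx4 at or above 1.43 FPKM. In these, Axin2 is at 1.85 and 1.94 FPKM in Adamts16+/- libraries 1 and 2 and at 1.49 and 1.61 FPKM in WT libraries 3 and 7. In Adamts16+/- library 3, with Tbx4 at 0.252 FPKM, Axin2 is at 1.53 FPKM.

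Wnt4, Wnt9a and Wnt9b were low. Wnt4, known for kidney and gonad development and also expressed in valve cushions of the mouse, was at 1.29, 1.55, 1.03 and 1.37 FPKM in Adamts16+/-, at 0.945, 0.914, 1.21 and 1.36 FPKM in Adamts16+/H355Q and at 0.700 to 1.48 FPKM with a median of 0.977 FPKM in WT. The groups overlapped, and the limma intervals of its log2 differences were -0.03 to 0.55 for Adamts16+/- against WT, -0.20 to 0.38 for Adamts16+/H355Q against WT and -0.15 to 0.49 between the mutant groups. Wnt9a, a ligand of the endocardium, was at 1.29, 1.33, 1.5 and 1.56 FPKM in Adamts16+/-, at 1.30, 1.0, 1.34 and 1.25 FPKM in Adamts16+/H355Q and at 0.823 to 1.47 FPKM with a median of 1.07 FPKM in WT. WT libraries 6 and 7 reached the Adamts16+/- range, and against WT the log2 difference in Adamts16+/- was 0.24 ± 0.10 (SE, limma adjusted p = 0.214). Against WT, Adamts16+/H355Q gave an interval of -0.14 to 0.30, and the mutant groups differed by -0.09 to 0.41. Wnt9b, an endocardial ligand tied to blood flow in zebrafish and mouse valves, was at 0.320, 0.404, 0.248 and 0.272 FPKM in Adamts16+/-, at 0.156, 0.153, 0.249 and 0.263 FPKM in Adamts16+/H355Q and at 0.118 to 0.344 FPKM with a median of 0.218 FPKM in WT. Below the filter it was tested on its own: two-sided exact permutation p-values were 0.103 for Adamts16+/- against WT, 0.661 for Adamts16+/H355Q against WT and 0.0857 between the mutant groups (adjusted over the 3, 0.155, 0.661 and 0.155), where 4 against 7 libraries cannot give less than 0.00606 and 4 against 4 not less than 0.0286. Within WT, libraries 1 to 4 held 0.218 to 0.344 FPKM and libraries 5 to 7 held 0.118 to 0.200 FPKM.

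Rspo3 encodes an R-spondin, which binds Lgr receptors and keeps the ligases Rnf43 and Znrf3 from removing frizzled, so that Wnt signals are received more strongly. In the mouse it is needed for coronary vessel growth, and it lies on chromosome 10 from 29452416 to 29535867 on the minus strand. It was at 2.97, 3.40, 3.16 and 3.05 FPKM in Adamts16+/-, at 2.39, 2.39, 3.06 and 3.31 FPKM in Adamts16+/H355Q and at 1.96 to 2.75 FPKM with a median of 2.21 FPKM in WT. Every Adamts16+/- library was above every WT library, which 3.40% of all genes tested also showed, and Adamts16+/H355Q libraries 3 and 4 lay in the Adamts16+/- range while libraries 1 and 2 lay in the WT range. Against WT the log2 difference in Adamts16+/- was 0.40 ± 0.089 (SE, limma adjusted p = 0.029). That of Adamts16+/H355Q from WT was 0.25 ± 0.089 (limma adjusted p = 0.173), and the mutant groups differed by 0.16 with an interval of -0.06 to 0.37. The call against WT was held in 9 of the 15 fits that left out 1 library and was lost without any single Adamts16+/- library and without WT library 5 or 6 (limma adjusted p up to 0.0954). Without Adamts16+/- libraries 1 and 2 and WT library 7 the difference was 0.36 (limma adjusted p = 0.294), and with Adamts16+/H355Q libraries 2 and 4 also left out it was 0.36 (limma adjusted p = 0.284). Set against WT libraries 1 to 4 alone the difference was 0.34 (limma adjusted p = 0.115), and against WT libraries 5 to 7 alone it was 0.49 (limma adjusted p = 0.0103).

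The embryonic globin Hbb-y, which red cells make early in gestation and then lose, was picked from the red cell list after its values were seen, and every Adamts16+/- library was above every WT library. It was at 3866 to 5056 FPKM in Adamts16+/-, and at 3089, 679, 5110 and 3547 FPKM in Adamts16+/H355Q libraries 1 to 4. In WT it was at 1149 to 2073 FPKM in libraries 1 to 4 and at 134 to 413 FPKM in libraries 5 to 7, where Rspo3 was at 2.19 to 2.75 and 1.96 to 2.21 FPKM. Adamts16+/H355Q libraries 1 and 2 had nearly equal Rspo3 (2.39 FPKM each) with Hbb-y at 3089 and 679 FPKM. Of the 8 genes of the red cell list 2 were called higher in Adamts16+/- than in WT and 3 had a positive difference, with a median of -0.17. The list had a mean log2 level of 7.56 to 8.07 in Adamts16+/-, 7.14 to 7.98 in Adamts16+/H355Q and 7.0 to 7.99 in WT. The part of embryo age or blood in the Rspo3 difference was not tested.

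Axin2 lies on chromosome 11 from 108920349 to 108950783 on the plus strand of GRCm38. Its level was 1.85, 1.94, 1.53 and 1.49 FPKM in Adamts16+/- libraries 1 to 4, 0.795, 0.895, 0.839 and 1.10 FPKM in Adamts16+/H355Q libraries 1 to 4, and 1.11 to 1.61 FPKM with a median of 1.26 FPKM in WT. The mutant groups did not overlap, every Adamts16+/H355Q library was below every WT library, and Adamts16+/- libraries 3 and 4 lay within the WT range. Adamts16+/- averaged 1.70 ± 0.226 FPKM and Adamts16+/H355Q 0.907 ± 0.134 FPKM (SD, n = 4 each). The log2 difference was 0.65 ± 0.11 (SE, 95% interval 0.42 to 0.87, limma adjusted p = 0.00911). WT averaged 1.35 ± 0.194 FPKM (SD, n = 7), from which Adamts16+/- differed by 0.25 ± 0.095 (SE, limma adjusted p = 0.161) and Adamts16+/H355Q by -0.39 ± 0.095 (SE, limma adjusted p = 0.0735). An Adamts16+/H355Q group wholly below WT was seen for 1.79% of all genes tested, and one wholly above for 0.863%.

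The Axin2 difference between the mutant groups was called in each of the 15 fits that left out 1 library (0.59 to 0.71, limma adjusted p from 0.00289 to 0.0351). It was 0.52 (limma adjusted p = 0.0599) without Adamts16+/- libraries 1 and 2 and WT library 7. When Adamts16+/H355Q libraries 2 and 4 were left out as well, which leaves no library with Foxn1 above 0.0333 FPKM, it was 0.61 (limma adjusted p = 0.21, with 2 libraries in each mutant group). The lower level in Adamts16+/H355Q against WT passed the threshold without WT library 7 (limma adjusted p = 0.0297), where 9.32% of all genes were called. It also passed with WT libraries 5 to 7 left out (-0.43, limma adjusted p = 0.00943), where 21.5% were called. With WT libraries 1 to 4 left out it did not pass (-0.35, limma adjusted p = 0.264), and 0.132% were called. WT libraries 1 to 4 were at 1.26 to 1.55 FPKM and WT libraries 5 to 7 at 1.11 to 1.61 FPKM. WT libraries 5 and 6 (1.11 and 1.19 FPKM) were below each of WT libraries 1 to 4, and WT library 7 was the highest.

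Some other measures were set beside Axin2 in the mutant groups. The endothelium and endocardium list, with all 8 genes tested, had a mean log2 level of 4.34 to 4.39 in Adamts16+/- and 4.02 to 4.11 in Adamts16+/H355Q, without overlap, and of 3.87 to 4.44 in WT. Skeletal muscle markers (8 genes, 5 tested) had a mean log2 level of 0.23 to 1.83 in Adamts16+/-, 0.13 to 0.52 in Adamts16+/H355Q and 0.10 to 0.66 in WT, with overlap. The implied depth did not overlap between the mutant groups. The part of cell composition or depth in the Axin2 difference was not tested.

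Lef1, the DNA-binding partner of beta-catenin that is also induced by Wnt signals, lies on chromosome 3 from 131110471 to 131224356 on the plus strand. It was at 0.977, 1.10, 0.611 and 0.638 FPKM in Adamts16+/-, at 0.398, 0.422, 0.482 and 0.534 FPKM in Adamts16+/H355Q and at 0.268 to 0.716 FPKM with a median of 0.507 FPKM in WT. Adamts16+/- libraries 1 and 2 stood above all others, and the lowest Adamts16+/- library was above the highest Adamts16+/H355Q library. The log2 difference was 0.46 ± 0.16 (SE, limma adjusted p = 0.0803) between the mutant groups and 0.44 ± 0.14 (SE, limma adjusted p = 0.106) for Adamts16+/- against WT, neither of which passed. Without Adamts16+/- libraries 1 and 2 and WT library 7 these became 0.23 (limma adjusted p = 0.458) and 0.27 (adjusted p = 0.559). The difference between the mutant groups passed in 4 of 13 other settings. The limma adjusted p was 0.0387 under quantile scaling (12.3% of all genes called) and 0.0456 with only these groups in the fit (19.9%). It was 0.00841 with array weights (28.7%) and 0.0281 without WT libraries 5 to 7 (23%). Against WT the Adamts16+/- difference passed with array weights (0.52, limma adjusted p = 0.0233), where 6.97% of all genes were called. Because Lef1 passed the filter only through its level in Adamts16+/-, these tests lend no support to a difference. Adamts16+/H355Q differed from WT by -0.01 (interval -0.32 to 0.29). Lef1 is also a gene of T cells, and thymus markers (7 genes, 3 tested) had a mean log2 level of -0.55 to 0.41 in Adamts16+/-, -0.59 to 1.34 in Adamts16+/H355Q and -0.61 to 1.49 in WT. Adamts16+/H355Q library 2 had the level 1.34 with Lef1 at 0.422 FPKM. Library 4 of that group had 0.75 with Lef1 at 0.534 FPKM, the highest of the group. WT library 7 had 1.49 with Lef1 at 0.716 FPKM, the highest in WT. Adamts16+/- libraries 1 and 2 had 0.14 and 0.41, and libraries 3 and 4 had -0.55 and -0.54. The part of thymus tissue in the Lef1 values was not tested.

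The windows of 250 bases before the transcription start of Axin2 and of Lef1 are shown because TCF/LEF proteins bind near the starts of many Wnt targets and because these are the targets measured here. They come from RefSeq (GRCm38.p6) and are written 5′ to 3′ on the plus strand, with capitals marking a TCF/LEF core, searched on both strands as CTTTG followed by AA, AT, TA or TT (the 4 motifs share their first 5 letters).
Axin2, chr11:108920099-108920348: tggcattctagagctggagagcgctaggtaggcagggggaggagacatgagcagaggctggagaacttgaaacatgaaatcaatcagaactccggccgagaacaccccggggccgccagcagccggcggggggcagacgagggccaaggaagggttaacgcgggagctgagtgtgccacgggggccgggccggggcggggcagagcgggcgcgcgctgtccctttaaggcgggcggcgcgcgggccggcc
Lef1, first start, chr3:131110047-131110296: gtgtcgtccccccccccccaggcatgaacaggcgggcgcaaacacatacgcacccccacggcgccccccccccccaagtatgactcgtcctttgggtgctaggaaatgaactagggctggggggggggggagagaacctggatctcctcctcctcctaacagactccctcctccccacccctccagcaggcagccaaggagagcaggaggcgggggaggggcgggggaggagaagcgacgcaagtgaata
Lef1, later start, chr3:131156044-131156293: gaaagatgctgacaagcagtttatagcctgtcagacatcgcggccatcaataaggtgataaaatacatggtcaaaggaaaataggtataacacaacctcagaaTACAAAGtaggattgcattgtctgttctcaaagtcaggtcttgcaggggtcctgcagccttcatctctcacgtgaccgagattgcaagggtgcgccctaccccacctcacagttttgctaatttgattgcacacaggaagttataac

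The Axin2 window and the first Lef1 window held no core. The window of the later Lef1 start held 1, CTTTGTA on the minus strand 147 bases before the start. Lef1 also had windows at chr3:131110073-131110322 and chr3:131112541-131112790, which are not printed and held no core. The Axin2 window was 69.2% G or C and the first Lef1 window 66.4%, against a median of 52.4% over all windows. Windows were given for 7 of the 9 genes (11 windows), of which 2 held a core; the other was that of Wnt11, CTTTGAT on the minus strand 51 bases before the start. Of all 32851 windows of this length 14.8% held a core. A match is a description of letters in this window only.

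Levels of Axin2 and Lef1 ran together across the 15 libraries, with Pearson's r of 0.739 on the log scale and 0.82 after the genotype means were taken out. Wnt2 and Wnt4 gave r = 0.736 (0.773 within genotypes), and Wnt5a and Rspo3 gave 0.71 (0.342 within genotypes). Rspo3 and Axin2 gave 0.178. These are descriptions over 15 libraries that share genotype, depth and tissue content, with no test. Of the 36 pairs of the 9 genes these were chosen for display after their values were seen.

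Among tested genes that averaged 1 FPKM or more, those most like Axin2 over the 15 libraries were Tle3 (r = 0.906), Daam2 (r = 0.906) and Zc3h3 (r = 0.901), with 0.79, 0.631 and 0.707 within genotypes. Daam2 was at 5.57 to 6.5 FPKM in Adamts16+/-, 3.73 to 4.69 FPKM in Adamts16+/H355Q and 4.46 to 6.33 FPKM in WT. Most like Rspo3 were Scrn1 (r = 0.945), Mme (0.923) and Stmn4 (0.922). Stmn4 was at 5.19 to 6.27 FPKM in Adamts16+/-, 3.32 to 5.27 FPKM in Adamts16+/H355Q and 1.63 to 3.12 FPKM in WT, so the same libraries were high as for Rspo3. Most like Wnt5a were Plekha8 (0.913), Tbl2 (0.903) and Tcp11l1 (0.90), and most like Lef1 were Kazn (0.912) and Prr11 (0.909). Wnt2 was most like Zfp503 (0.903), Smo (0.895) and Snai2 (0.884), and without Adamts16+/- library 2 and WT library 7 these were 0.729, 0.697 and 0.605. Wnt4 was most like Usp11 (0.946), Pard6g (0.90) and Ykt6 (0.897), Wnt9a like Bud23 (0.928), Gemin4 (0.926) and Gemin5 (0.901), and Wnt11 like Mfsd5 (0.823), Triobp (0.80) and the pseudogene Rps2-ps13 (0.794).

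The other 86 genes listed for the pathway, of which 62 passed the filter, were then set beside the 9. The most abundant of each role were Wnt2b among the other ligands, the ligand carrier Wls, the R-spondin receptor Lgr4, the receptor Ryk, the secreted inhibitor Sfrp1, beta-catenin itself (Ctnnb1), the cell cycle target Ccnd1 and the polarity gene Daam1. Ctnnb1 averaged 108 ± 9.89 FPKM in Adamts16+/-, 123 ± 12.9 FPKM in Adamts16+/H355Q (SD, n = 4 each) and 98.3 ± 14.4 FPKM in WT (SD, n = 7). Sfrp1 averaged 58.0 ± 2.14 FPKM in Adamts16+/-, 52.8 ± 6.05 FPKM in Adamts16+/H355Q and 47.7 ± 9.30 FPKM in WT, with the same n. Wnt2b averaged 2.64 ± 0.239 FPKM in Adamts16+/-, 2.02 ± 0.264 FPKM in Adamts16+/H355Q and 2.36 ± 0.507 FPKM in WT. Wls, Lgr4, Ryk and Daam1 had group means of 10.6 to 21.8 FPKM. None of these 7 genes was called, and Ccnd1 was. Of the 13 other ligands 3 passed the filter and 8 were under 0.05 FPKM.

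For Adamts16+/- against WT 2 of the 62 genes rose and 0 fell, where 1.57% of all genes rose and 1.18% fell. The median log2 difference of the 62 was 0.14, against 0.01 over all genes. Both genes are targets that drive proliferation. The cyclin gene Ccnd1 averaged 20.1 ± 0.694 FPKM in Adamts16+/- (SD, n = 4) while WT had 16.1 ± 1.49 FPKM (SD, n = 7), without overlap (0.32 ± 0.068, SE, limma adjusted p = 0.0258). Myc, a transcription factor of growth, averaged 5.80 ± 0.502 FPKM, against 4.21 ± 0.714 FPKM in WT (0.43 ± 0.11, SE, limma adjusted p = 0.0437). Ccnd1 kept its call in 11 of the 15 fits that left out 1 library and lost it without any single Adamts16+/- library, and Myc kept it in 4. Without Adamts16+/- libraries 1 and 2 and WT library 7, 0 of the 62 were called, where 0.0461% of all genes were.

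For Adamts16+/H355Q against WT limma called 0 of the 62 genes, with 14 at an unadjusted p under 0.05. That is 22.6% of the 62, near the 18.3% of all genes tested. The median difference was -0.07, against 0.02 over all genes. The smallest adjusted p was that of Bambi, a pseudoreceptor for TGF-beta and BMP signals, with a log2 difference of 0.34 (limma adjusted p = 0.0596), and Ctnnb1 differed by 0.33 (limma adjusted p = 0.139). Tcf7l1, a mostly repressing TCF factor, had a log2 difference of -0.45 (limma adjusted p = 0.0655), the secreted inhibitor Sost of -0.44 (adjusted p = 0.0665) and the feedback inhibitor Nkd1 of -0.39 (adjusted p = 0.0933), each with every Adamts16+/H355Q library below every WT library, as seen for 1.79% of all genes. Without WT library 7, 8 of the 62 were called, where 9.32% of all genes were. With WT libraries 5 to 7 left out 14 were called, where 21.5% of all genes were, a share near that of the 62.

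For Adamts16+/- against Adamts16+/H355Q 12 of the 62 genes rose and 1 fell, where 5.71% of all genes rose and 4.33% fell. The median difference was 0.15, against -0.02 over all genes. By role, 2 of 15 receptors rose (Fzd7 and the co-receptor gene Lrp5), as did 2 of 9 secreted inhibitors (Sost and Dkk3), 4 of 14 genes of transduction (Tcf7l1, Tcf7l2, the dishevelled gene Dvl3 and the kinase gene Gsk3a), 3 of 8 targets (Nkd1, Apcdd1 and Myc) and 1 of 7 polarity genes (Celsr2). Of the 3 other ligands, 2 secretion genes and 4 R-spondin genes tested, 0 were called by limma. At an unadjusted limma p under 0.05 there were 3 of them, where 28.9% of all genes tested fell under it. Sost, Dkk3, Nkd1, Apcdd1 and Gsk3a encode proteins that restrain the pathway or are named as its inhibitors, while Fzd7, Lrp5 and Dvl3 encode parts that receive it.

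Tcf7l1 was at 6.55, 6.90, 6.84 and 5.05 FPKM in Adamts16+/- and at 3.93, 3.40, 3.69 and 3.19 FPKM in Adamts16+/H355Q, with 4.07 to 6.16 FPKM in WT. The groups were far apart, with a log2 difference of 0.75 ± 0.12 (SE, limma adjusted p = 0.00807). Nkd1, a dishevelled-binding protein induced by Wnt signals, was at 3.02, 3.07, 2.79 and 2.52 FPKM in Adamts16+/- and at 1.92, 1.48, 1.97 and 1.91 FPKM in Adamts16+/H355Q, with 2.01 to 3.17 FPKM in WT. Its difference was 0.53 ± 0.12 (SE, limma adjusted p = 0.0185), and Adamts16+/- lay within WT. Apcdd1, a membrane inhibitor of the pathway, was at 1.69, 1.75, 1.30 and 1.36 FPKM in Adamts16+/- and at 0.988, 0.768, 1.10 and 1.25 FPKM in Adamts16+/H355Q (0.41 ± 0.11, SE, limma adjusted p = 0.029). Bambi, which blocks TGF-beta and BMP signals and is also listed as a Wnt target, was the gene that fell: it was at 8.97, 9.10, 9.26 and 8.99 FPKM in Adamts16+/- and at 12.1, 11.2, 12.8 and 12.8 FPKM in Adamts16+/H355Q, with 8.16 to 11.6 FPKM in WT (-0.41 ± 0.084, SE, limma adjusted p = 0.0146). WT libraries 1 to 4 and 5 to 7 did not overlap for Bambi (8.16 to 9.55 and 9.75 to 11.6 FPKM) or Apcdd1 (1.24 to 1.37 and 1.07 to 1.11 FPKM). In both genes WT libraries 5 to 7 lay toward Adamts16+/H355Q. They overlapped for Tcf7l1 (4.79 to 6.16 and 4.07 to 5.17 FPKM) and for Nkd1, where WT libraries 6 and 7 were highest. The part of this split in the mutant differences was not tested.

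The remaining genes that rose between the mutant groups did so by 0.36 (Gsk3a) to 0.59 (Fzd7) on the log2 scale, with limma adjusted p from 0.0209 to 0.0354. Fzd7 averaged 3.71 ± 0.609 FPKM in Adamts16+/- and 2.29 ± 0.394 FPKM in Adamts16+/H355Q (SD, n = 4 each). Dkk3, a divergent member of the Dickkopf family, averaged 22.2 ± 1.87 FPKM in Adamts16+/- and 16.2 ± 2.29 FPKM in Adamts16+/H355Q. Within WT, libraries 1 to 4 were wholly above libraries 5 to 7 for Lrp5, Tcf7l2, Dvl3 and Celsr2. For Myc they were wholly below, and for Fzd7, Dkk3, Sost and Gsk3a they overlapped. Tcf7l1 and Bambi were called in each of the 15 fits that left out 1 library, whereas the other 11 were each lost without Adamts16+/- library 1 and again without library 2, and were called in 9 to 12 fits. Of the 62 genes 2 were called without Adamts16+/- library 1 (2.5% of all genes). Without Adamts16+/- library 2 there were again 2 (2.47% of all genes), and these shares were near the background. Without Adamts16+/H355Q library 2 there were 3 (1.88% of all genes), a count too small to weigh against that share. With both Adamts16+/- libraries and WT library 7 left out 1 was called (0.903% of all genes), and with Adamts16+/H355Q libraries 2 and 4 left out as well there were 0 by limma, where 16 of all genes were called.

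**Figure D4:**
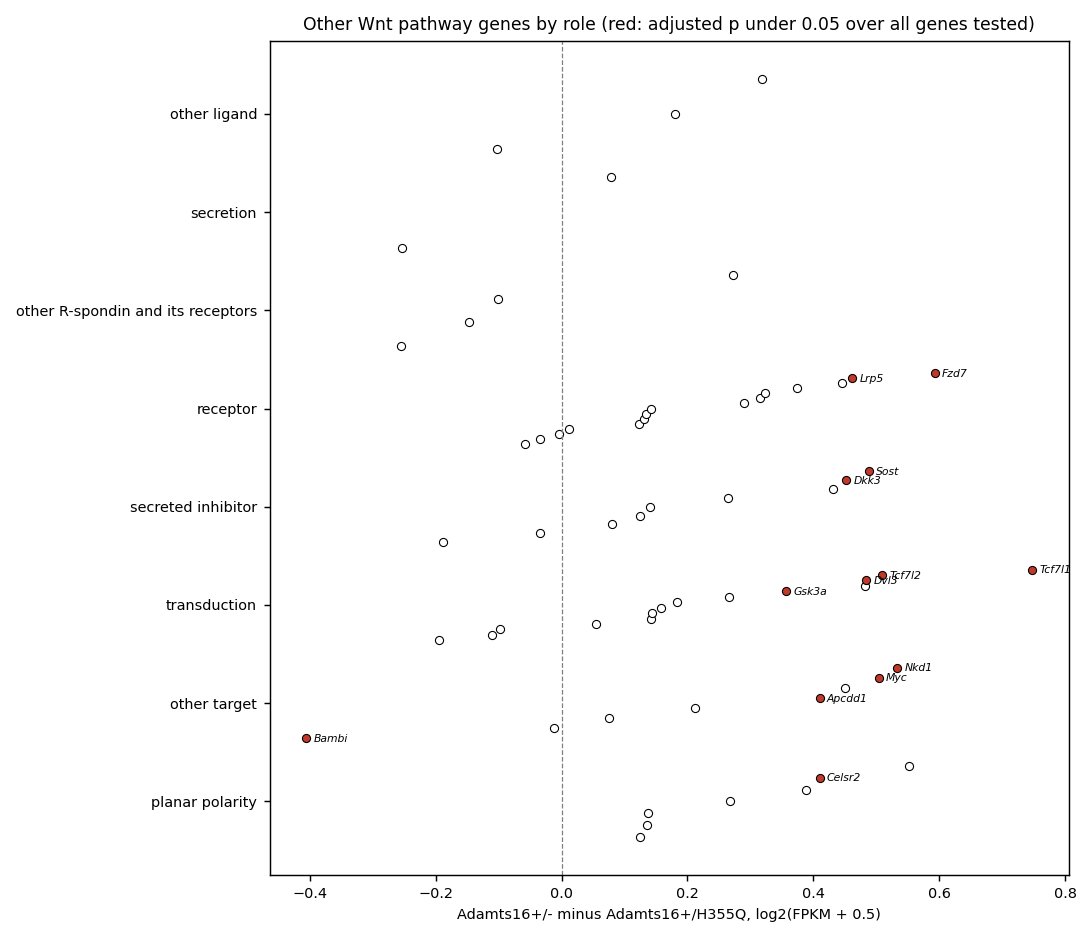
Log2 differences of Adamts16+/- from Adamts16+/H355Q (horizontal axis) for the 62 tested genes of the wider pathway list, in 1 row per role, with called genes in red and named. Tcf7l1 lies farthest to the right at 0.75 and Bambi farthest to the left at -0.41, and the ligand, secretion and R-spondin rows hold no call.

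**Figure D5:**
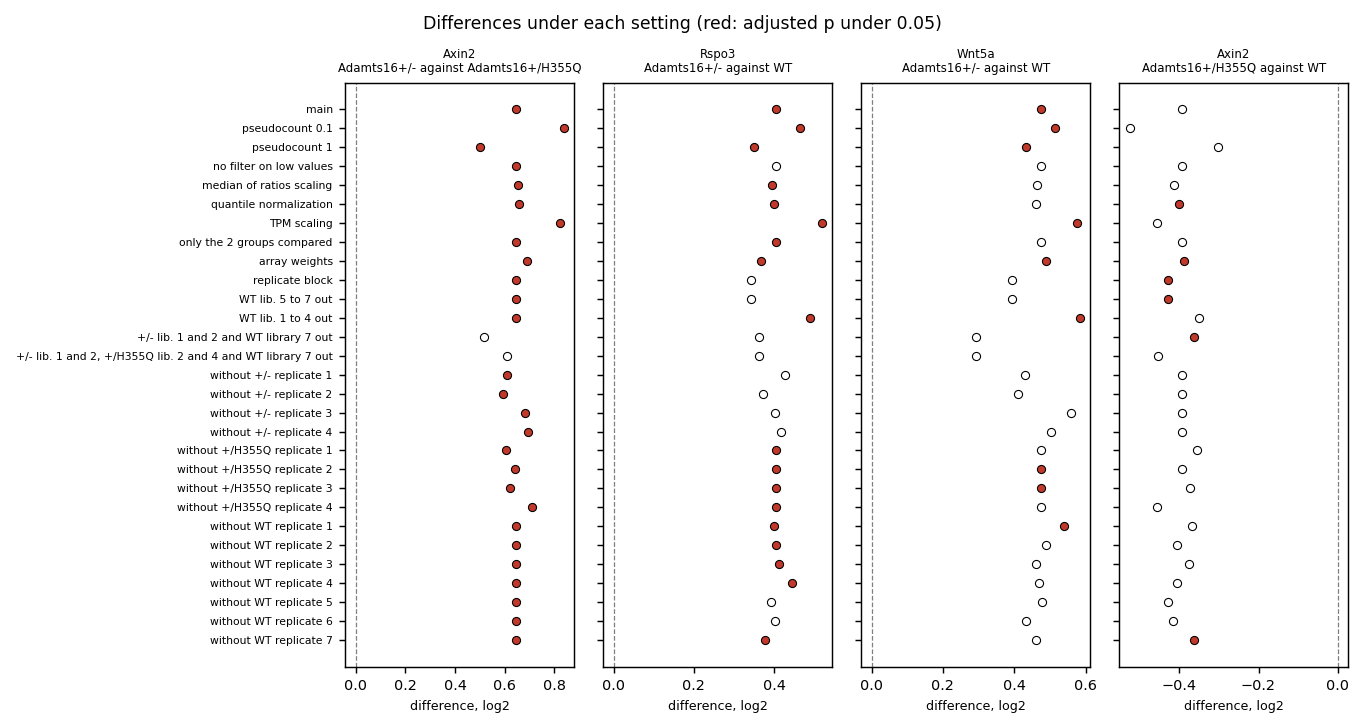
Log2 differences (horizontal axes) of Axin2, Rspo3, Wnt5a and again Axin2, in the comparison named above each panel, under every setting (1 row each), with an adjusted p under 0.05 in red. Axin2 between the mutant groups is red in each row except those that leave out Adamts16+/- libraries 1 and 2 together, whereas Rspo3 and Wnt5a against WT lose the call in many rows without a change of direction.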

How the data were processed

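RNA from embryonic hearts was sequenced in 15 libraries; per the labels' protocols TRIzol served to isolate RNA and a VAHTS kit to build the libraries. The authors deposited FPKM values, and per the submitters' processing notes fastp, HISAT2, HTSeq, R 3.2.0 and DESeq2 were used, with no role or order given. For the genome build, the annotation and the tool behind FPKM nothing is stated in the sources used here. Symbols were matched to 55154 of 55335 identifiers through GENCODE vM21 (GRCm38), and coordinates are from that annotation. Low values were whole multiples of 1 fragment, within 0.1 of a step, in 56.7% to 65.6% of cases, so whole reads were not recovered, no count model was used and the depths given are estimates. No pair of libraries held identical values.

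For tests, limma 3.58.1 was run under R 4.3.3 with a variance trend on log2(FPKM + 0.5), genotype as the only term, for genes that averaged 0.5 FPKM or more. Differences on this scale understate changes of low genes. Wnt9b, below the filter, was tested with an exact permutation test in scipy 1.17.1. The limma step was first tested on simulated data. Intervals are at 95%. The 9 genes, the pathway and marker lists and some alternatives were chosen with earlier results of these data known. Named pathway genes were those called in a comparison and the most abundant of each role. Genes most like one of the 9 were the 3 with the highest Pearson r among those that averaged 1 FPKM or more, leaving out numbered gene models, Rik and clone names. For Lef1, 1 of these genes is not reported here. Alternatives covered the pseudocount, filter, scaling, samples in the fit, weights, replicate number as a block and libraries left out; leaving out all 5 libraries with Foxn1 was added after the data were seen.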

Additional observations from a re-analysis of the deposited data

Results flagged for a closer look

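Of 27 groups of values examined (9 genes in 3 genotypes) 1 held a library far from the others: Wnt2 in WT library 7 was at 3.84 FPKM, with the nearest other WT library at 1.75 FPKM, a gap of 0.689 of the group's range against a limit of 0.568. Chance alone gives such a gap in about 1 of 20 groups. The same library had the highest level of the lung epithelium list (1.72, mean log2 over 8 genes), of the lung mesenchyme list (2.19) and of the thymus list (1.49). Without it the log2 difference of Wnt2 between Adamts16+/- and WT was 0.47 (limma adjusted p = 0.128), against 0.27 with it.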

How the results depend on the processing

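Counts of calls depended on the setting, and are given here for Adamts16+/- against WT, Adamts16+/H355Q against WT and Adamts16+/- against Adamts16+/H355Q in turn. The main counts were 2, 0 and 1 of the 8 tested genes, 2, 0 and 13 of the 62 pathway genes and 417, 57 and 1524 of all genes. Without the filter on low values they were 0, 0 and 1, then 1, 0 and 4, then 157, 24 and 580. Median of ratios scaling gave 1, 0 and 1, then 2, 1 and 14, then 377, 56 and 1613. Quantile normalization gave 1, 1 and 2, then 2, 1 and 15, then 433, 117 and 1867. TPM scaling gave 2, 0 and 1, then 6, 0 and 13, then 754, 42 and 1369. Fits of only the 2 groups compared gave 1, 0 and 2, then 0, 0 and 23, then 274, 24 and 3021. Array weights gave 4, 2 and 3, then 4, 11 and 25, then 1058, 2854 and 4352. Without WT libraries 5 to 7 they were 0, 1 and 2, then 1, 14 and 22, then 59, 3262 and 3491. Without WT libraries 1 to 4 they were 2, 0 and 1, then 18, 0 and 19, then 2903, 20 and 2614. Without Adamts16+/- libraries 1 and 2 and WT library 7 they were 0, 1 and 0, then 0, 5 and 1, then 7, 926 and 137. With Adamts16+/H355Q libraries 2 and 4 also left out they were 0, 0 and 0, then 0, 0 and 0, then 12, 32 and 16. Leaving out each library in turn gave 0 to 2, 0 to 1 and 1 of the 8 genes, 0 to 2, 0 to 8 and 2 to 20 pathway genes, and 61 to 463, 21 to 1414 and 285 to 2485 of all genes. For Wnt9b the differences then ranged from 0.11 to 0.20, from -0.08 to -0.004 and from 0.15 to 0.24. The causes were not tested.

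The split of higher and lower calls moved with the scaling. For Adamts16+/- against WT it was 238 and 179, against 170 and 207 with median of ratios, 192 and 241 under quantile scaling and 591 and 163 on the TPM scale. For Adamts16+/H355Q against WT it was 18 and 39, against 20 and 22 with TPM scaling, and between the mutant groups 867 and 657, against 992 and 377. Axin2, Rspo3 and Wnt5a kept their directions under every setting run.

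The replicate block gave 0, 1 and 1 of the 8 genes, 0, 12 and 23 pathway genes and 8, 2762 and 2931 of all genes. Replicate numbers 5 to 7 occur only in WT, so this fit takes WT libraries 5 to 7 out of the genotype differences. Same-numbered libraries did not deviate together (correlations from -0.12 to 0.15, -0.21 to 0.20 and -0.23 to 0.21, with 0, 1 and 1 of 4 matching their own number best). No pairing by number was seen, but 4 pairs per comparison cannot exclude one.

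Directions turned only for differences that no test called, all in Adamts16+/H355Q against WT. Lef1 (-0.014) was at 0.02 with TPM scaling, 0.017 with array weights, 0.089 without WT libraries 1 to 4, 0.042 without Adamts16+/- libraries 1 and 2 and WT library 7, 0.014 with 5 libraries left out, and between -0.069 and 0.042 with 1 left out. Wnt9a was at -0.056 without WT libraries 1 to 4, Wnt2 (-0.26) at 0.096 and Wnt11 at 0.08 with 5 libraries left out, and Wnt11 between -0.093 and 0.021 with 1 left out.

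Depth limits Wnt9b most, at about 26 fragments in 1 library, and FPKM values carry no counts for its counting error.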

Other observations

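Pygo2 and Gsk3b of the wider pathway list split the libraries into a low and a high band, both found in every genotype. Pygo2, a nuclear cofactor of beta-catenin, was at 3.11 FPKM in Adamts16+/- library 2, at 2.54 FPKM in Adamts16+/H355Q library 4 and at 1.52 to 3.87 FPKM in 4 of the WT libraries, and at 7.38 to 9.04 FPKM in all others. Gsk3b, a kinase that marks beta-catenin for destruction, was at 3.01 to 5.88 FPKM in 3 Adamts16+/-, 3 Adamts16+/H355Q and 2 WT libraries and at 9.52 to 14.0 FPKM in the other 7. The annotation lists 6 transcripts for Pygo2 and 5 for Gsk3b. These values were picked after they were seen.

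Tcf7, which T cells express highly, was at 2.73 and 3.28 FPKM in Adamts16+/- libraries 1 and 2, at 2.42 and 2.0 FPKM in Adamts16+/H355Q libraries 2 and 4 and at 4.70 FPKM in WT library 7, the 5 libraries with Foxn1, and at 0.876 to 1.70 FPKM in the other 10.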
